A study of Rattus norvegicus with 18 samples.

Results

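Myh6 (ENSRNOG00000025757) and Myh7 (ENSRNOG00000016983) encode the myosin heavy chains of the heart muscle sarcomere, and they are 2 of the 30560 genes counted in this study. They were taken by Ensembl ID, together with the ratio of Myh7 to Myh6 counts in each heart. The symbols came with the IDs. They could not be checked, because the RefSeq gene table at hand paired 0 of the 30560 IDs with a symbol. The data are bulk RNA sequencing of hearts of male Wistar rats aged 3 weeks. Hearts were flash frozen, and which chambers were taken is not stated. Their mothers had been given vehicle (7 offspring), cannabidiol at 3 mg/kg/day (CBD3, 6 offspring) or cannabidiol at 30 mg/kg/day (CBD30, 5 offspring) in gestation. Cannabidiol is a cannabinoid of the cannabis plant that does not intoxicate. No allele, transgene or treatment beyond this is named in the labels, and it is not given which offspring shared a mother. Littermates are not independent samples of a maternal dose, so p-values over offspring are too small if littermates resemble each other.

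Myosin heavy chain is the motor of the thick filament. It splits ATP and pulls on actin. The Myh6 product, alpha myosin heavy chain, cycles fast, and the Myh7 product, beta myosin heavy chain, cycles slowly and uses less ATP for a given force. In rodent ventricles Myh7 prevails before birth and Myh6 takes over around birth, a switch driven largely by thyroid hormone. Myh7 rises again in the rodent heart under pressure overload or when thyroid hormone is low, so the balance of both genes is widely read as a marker of cardiac maturity and load. Atria express mainly Myh6. In bulk tissue, fewer cells of a type and less RNA per cell cannot be told apart.

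In RefSeq's annotation of the rat assembly GRCr8, Myh6 and Myh7 lie on chromosome 15 with 0 protein-coding genes between them. Each hosts a microRNA that represses other messenger RNAs and takes part in the control of the myosin balance. Mir208a lies inside Myh6 and Mir208b inside Myh7. Their mature strands are printed because they show what the neighbouring genes share besides the coding parts. Sequences are from RefSeq (GRCr8, minus strand, 18 bases each as listed there), 5′ to 3′, with the seed, bases 2 to 8, in capitals.
rno-miR-208a-3p: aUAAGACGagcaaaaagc
rno-miR-208b-3p: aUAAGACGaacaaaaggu
The seeds are identical. These are the 2 of 724 mature rat microRNAs in the table that carry this seed. The libraries were made from messenger RNA, and the microRNAs themselves were not analysed here.

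The libraries held 44127009 to 89240727 counts. Each column carries a code such as 3.1 that the labels do not explain. It is used here to name the hearts, and its last digit divides them into 9 hearts with digit 1 (4 vehicle, 3 CBD3, 2 CBD30) and 9 with digit 2 (3 of each group). Vehicle hearts 1.1 and 2.1 and CBD30 heart 2.1 lay farthest out on the first principal component, an axis that summarises 29.8% of the variance in log2 CPM (CPM being counts scaled to a common library total) over 17009 genes. The dose differences, the differences between digits and the correlations are also given without them.

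Both genes were among the most abundant transcripts. Myh6 drew 861741 to 2450143 counts per heart, which made it the 2nd to 7th most counted gene of the 30560 in every heart. Its share of a library was 1.87% to 3.39%. Myh7 drew 248311 to 616272 counts, 0.473% to 0.798% of a library, and ranked 16th to 22nd. Myh7 counts were 0.166 to 0.395 times Myh6 counts (median 0.270 over 18 hearts). These are counts that are not divided by transcript length, which the files do not give, so the ratio is compared between hearts rather than read as a proportion of molecules. The genes have closely similar coding sequences. No source at hand states how the authors' counting treated reads that match both, and some exchange of reads between them cannot be told apart from expression. Markers of heart and of other cell types could not be looked up by symbol, so the labelled tissue was not checked. The abundance of these 2 IDs bears on it only if their symbols are right.

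The labels name a gestational dose, and the first question is whether Myh6, the fast isoform, differed in hearts of exposed offspring. Levels are CPM scaled by the trimmed mean of M-values (TMM), which corrects for library size and composition. In vehicle hearts Myh6 ranged from 16576 to 31813 CPM with a median of 28820. In CBD3 hearts it ranged from 22062 to 28773 CPM with a median of 23937. The CBD30 hearts had 21272 (heart 1.1), 21593 (2.1), 21815 (1.2), 18950 (3.2) and 20110 CPM (4.2). The CBD30 hearts were thus low and close together, and 6 of the 7 vehicle hearts lay above the highest of them. The exception was vehicle heart 2.2, whose 16576 CPM was the lowest value of all 18 hearts. The share of all genes in which 6 vehicle hearts lay above every CBD30 heart was not counted.

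Mean Myh6 was 26747 ± 5303 CPM in vehicle (SD, n = 7) and 20748 ± 1201 CPM in CBD30 hearts (n = 5). The log2 fold change was -0.37 ± 0.15 (SE), a fold of 0.776 with a 95% interval of 0.628 to 0.959. It did not pass adjustment over all genes (edgeR quasi-likelihood test, unadjusted p = 0.0212, Benjamini-Hochberg adjusted p = 0.239). In this comparison 0% of 17009 genes passed an adjusted p of 0.05, and 16.4% had an unadjusted p under 0.05, so an unadjusted p of this size was common. The spread in that fit was estimated over all 3 groups. In a fit of these 2 groups alone the Myh6 log2 fold change was -0.35 ± 0.17 (SE; edgeR unadjusted p = 0.0601, adjusted p = 0.400). DESeq2 called 133 genes and limma voom 0. Neither called Myh6 (adjusted p = 0.141 and 0.236). A larger absolute log2 fold change than that of Myh6 was seen for 20.5% of tested genes, against a median absolute change of 0.18.

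The Myh6 difference from vehicle had the same size in both sets of codes. It was -0.34 ± 0.21 (log2, SE; edgeR unadjusted p = 0.132) in hearts ending in digit 1 and -0.35 ± 0.27 (edgeR unadjusted p = 0.218) in hearts ending in digit 2. The difference between the sets was -0.002 ± 0.31 (edgeR interaction, unadjusted p = 0.995, adjusted p = 0.998; 0.03 ± 0.41 without the 3 hearts farthest out). Without the 3 hearts farthest out the difference from vehicle was -0.35 ± 0.17 (edgeR, unadjusted p = 0.0516, adjusted p = 0.756). Without vehicle heart 2.2 it was -0.46 ± 0.11 (edgeR, unadjusted p = 0.000885, adjusted p = 0.162). Leaving out each heart in turn gave log2 fold changes from -0.46 to -0.32 and adjusted p from 0.146 to 0.498 with edgeR. The direction was the same in every fit run, and the call was absent in every fit run.

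At the lower dose Myh6 was 24541 ± 2572 CPM (SD, n = 6), a log2 fold change from vehicle of -0.12 ± 0.14 (SE; edgeR adjusted p = 0.710). The 95% interval of the fold was 0.751 to 1.12. All 6 CBD3 hearts lay inside the vehicle range. Among all genes 0% passed an adjusted p of 0.05 with edgeR and 8.92% had an unadjusted p under 0.05, while DESeq2 called 5 genes and limma voom 0. Both doses are set against the same 7 vehicle hearts, so their differences from vehicle are not independent of each other.

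Between the doses, all 5 CBD30 hearts lay below the lowest CBD3 heart for Myh6, with 21815 CPM the highest CBD30 value and 22062 CPM the lowest CBD3 value. The gap is narrow. That order held for 26 of 17009 genes (0.153%), and the opposite order for 11. Of the 462 divisions of these hearts into groups of these sizes, 1 gives that order. The share of genes is thus no larger than random division gives. The order of Myh6 was also seen with relative log expression factors (21927 against 22100 CPM). It was not seen when counts were divided by library size only, where 13 genes showed it. There, 4 of the 5 CBD30 hearts lay below the lowest CBD3 heart (highest CBD30 22157, lowest CBD3 21181 CPM). The log2 fold change was -0.24 ± 0.15 (SE; edgeR unadjusted p = 0.123, adjusted p = 0.999), with the spread estimated over all 3 groups. In a fit of these 2 groups alone it was -0.24 ± 0.10 (SE; edgeR unadjusted p = 0.0348, adjusted p = 0.999). In the fit of all 3 groups 0% of genes passed an adjusted p of 0.05 with edgeR and 1.73% had an unadjusted p under 0.05. The fit of these 2 groups alone called 1 gene of 16516 and had 327 at an unadjusted p under 0.05. DESeq2 called 1 gene and limma voom 0.

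**Figure D1:**
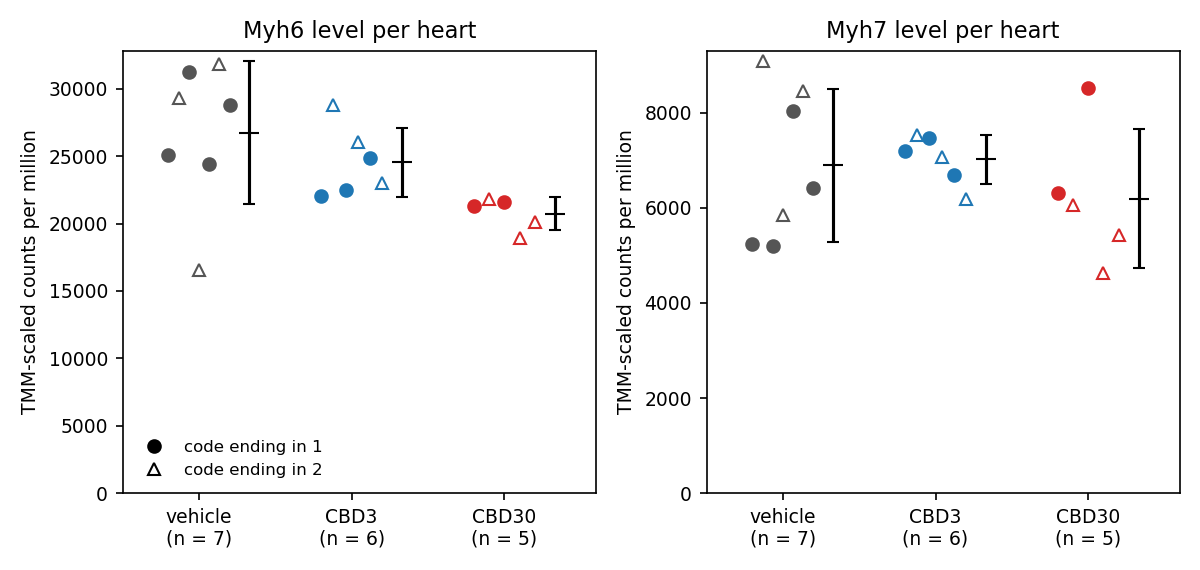
TMM-scaled CPM of Myh6 (left) and Myh7 (right) in each of 18 hearts by group, with filled circles for codes ending in 1 and open triangles for codes ending in 2. Black lines are the group mean ± SD. For Myh6 the CBD30 hearts sit between 18950 and 21815 CPM, above vehicle heart 2.2 (16576 CPM) and below the other 6 vehicle hearts. For Myh7 the groups overlap.

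Myh7, the slow isoform, did not separate the groups. Vehicle hearts ranged from 5199 to 9079 CPM with a median of 6410, and CBD3 hearts from 6176 to 7527 CPM with a median of 7129. CBD30 hearts had 6304 (1.1), 8527 (2.1), 6066 (1.2), 4627 (3.2) and 5426 CPM (4.2). CBD30 heart 2.1 was therefore high, above every CBD3 heart, whereas CBD30 heart 3.2 had the lowest value of all 18.

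The 7 vehicle hearts averaged 6893 ± 1608 CPM (SD), the 6 CBD3 hearts 7020 ± 513 CPM and the 5 CBD30 hearts 6190 ± 1459 CPM of Myh7. For CBD3 against vehicle the log2 fold change was 0.03 ± 0.16 (SE; edgeR adjusted p = 0.949), with a 95% interval of the fold of 0.813 to 1.28. For CBD30 against vehicle it was -0.16 ± 0.16 (SE; edgeR adjusted p = 0.630), with an interval of 0.708 to 1.14. For CBD30 against CBD3 it was -0.18 ± 0.17 (SE; edgeR adjusted p = 0.999), with an interval of 0.690 to 1.13. Leaving out each heart in turn moved the CBD30 difference from vehicle between -0.30 (without CBD30 heart 2.1) and -0.07 (without CBD30 heart 3.2), and that from CBD3 between -0.32 and -0.09, without the same hearts. The CBD30 difference from vehicle was -0.08 without vehicle heart 1.2 and -0.10 without vehicle heart 3.2. The intervals leave room for changes of either sign, so these hearts do not show that Myh7 was equal between groups.

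Unlike Myh6, the Myh7 difference from vehicle at the higher dose changed sign with the last digit of the code. It was 0.27 ± 0.23 (log2, SE) in hearts ending in digit 1, with means of 7415 CPM in CBD30 (n = 2) and 6217 CPM in vehicle (n = 4). In hearts ending in digit 2 it was -0.54 ± 0.22, with means of 5373 and 7794 CPM (n = 3 each). The difference between the digits was 0.79 ± 0.30 (edgeR interaction, unadjusted p = 0.0184, adjusted p = 0.376), in a test where 12.9% of genes had an unadjusted p under 0.05. The hearts farthest out all have codes ending in digit 1. They hold the 2 lowest vehicle values of Myh7 (5199 and 5229 CPM) and the highest CBD30 value (8527 CPM). Leaving them out therefore lowers the difference from vehicle, and that between the digits, by itself. Without them the Myh7 difference was -0.43 ± 0.14 (edgeR unadjusted p = 0.00744, adjusted p = 0.626), and the difference between the digits was 0.34 ± 0.34 (edgeR interaction, unadjusted p = 0.329, adjusted p = 0.9999).

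**Figure D2:**
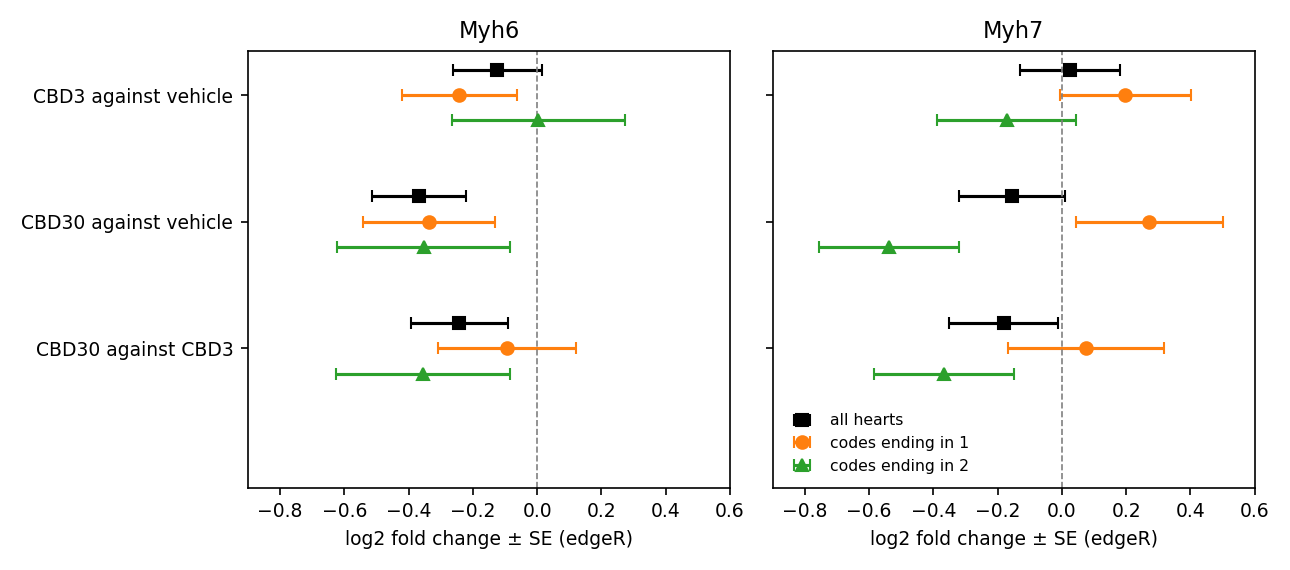
Log2 fold changes of Myh6 (left) and Myh7 (right) for the 3 comparisons, from edgeR fits of all hearts (black squares), hearts with codes ending in 1 (orange circles) and in 2 (green triangles), with bars for ± SE and a dashed line at no change. For CBD30 against vehicle, Myh6 sits at -0.34 and -0.35 in both sets of codes, while Myh7 sits at 0.27 in the first and -0.54 in the other.

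The ratio of Myh7 to Myh6 counts is free of library scaling, and it puts the isoform balance of each heart in 1 number. It ranged from 0.166 to 0.352 in vehicle hearts (median 0.266) and from 0.262 to 0.332 in CBD3 hearts (median 0.270). In CBD30 hearts it was 0.296 (1.1), 0.395 (2.1), 0.278 (1.2), 0.244 (3.2) and 0.270 (4.2). The lowest ratios belonged to vehicle hearts 2.1 (0.166), 1.1 (0.209) and 4.1 (0.222), and every other heart was at 0.244 or above. The highest belonged to CBD30 heart 2.1. As a share of the counts of both genes, Myh7 held 14.3% to 28.3% over the 18 hearts. Counting error is small beside this, with 95% Wilson intervals of the share at most 0.159 percentage points wide. PCR reads are not independent molecules, so those intervals cover counting error only.

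The log2 ratio averaged -1.96 ± 0.40 (SD) over the 7 vehicle hearts, -1.80 ± 0.16 over the 6 CBD3 hearts and -1.77 ± 0.26 over the 5 CBD30 hearts. The difference from vehicle was 0.16 for CBD3, with a 95% interval of -0.23 to 0.55 (exact two-sided permutation p = 0.381). For CBD30 it was 0.19, with an interval of -0.28 to 0.66 (exact two-sided permutation p = 0.380). Between CBD30 and CBD3 it was 0.03, with an interval of -0.23 to 0.32 (exact two-sided permutation p = 0.829). Adjusted over the 3 comparisons, p was 0.572, 0.572 and 0.829 (exact permutation, Benjamini-Hochberg). No difference in the isoform balance was detected with these group sizes. CBD3 minus vehicle ranged from 0.05 (without vehicle heart 2.1) to 0.23 (without vehicle heart 2.2) over the hearts left out. CBD30 minus vehicle ranged from 0.08 (without CBD30 heart 2.1 or vehicle heart 2.1) to 0.26 (without vehicle heart 2.2). In linear terms the CBD30 interval runs from 0.826 to 1.59 times the vehicle ratio.

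The mean ratio of both dose groups was above that of vehicle in hearts ending in digit 1 and below it in those ending in digit 2. In digit 1 the log2 ratio averaged -2.16 ± 0.41 (SD) over 4 vehicle hearts, -1.70 ± 0.17 over 3 CBD3 hearts and -1.55 ± 0.29 over 2 CBD30 hearts. In digit 2 the means were -1.70 ± 0.20 in vehicle, -1.91 ± 0.03 in CBD3 and -1.92 ± 0.10 in CBD30 hearts (n = 3 each). CBD3 minus vehicle was therefore 0.46 in digit 1 and -0.20 in digit 2, and CBD30 minus vehicle 0.61 and -0.22. The difference between the digits was 0.66 for CBD3 (exact permutation within digits, unadjusted p = 0.0471, adjusted over 3 tests 0.0850) and 0.83 for CBD30 (exact permutation p = 0.0567, adjusted 0.0850). Without the 3 hearts farthest out, CBD3 minus vehicle was -0.03 and CBD30 minus vehicle -0.11 (exact permutation p = 0.818 and 0.484). The differences between the digits were then 0.39 and 0.35 (exact permutation p = 0.145 and 0.500, adjusted 0.435 and 0.750). Those 3 hearts hold the 2 lowest ratios (0.166 and 0.209, both vehicle) and the highest (0.395, CBD30). Leaving them out therefore lowers all these differences by itself. What the digit stands for is not given, and why the dose differences varied with it was not tested. With hearts permuted within digits, the log2 ratio differed from vehicle by 0.13 for CBD3 and 0.19 for CBD30 (exact permutation p = 0.476 and 0.397). These are means of the differences in the 2 digits. Over all groups the log2 ratio differed by -0.02 between the digits (digit 1 minus digit 2, exact permutation p = 0.867, n = 9 each).

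**Figure D3:**
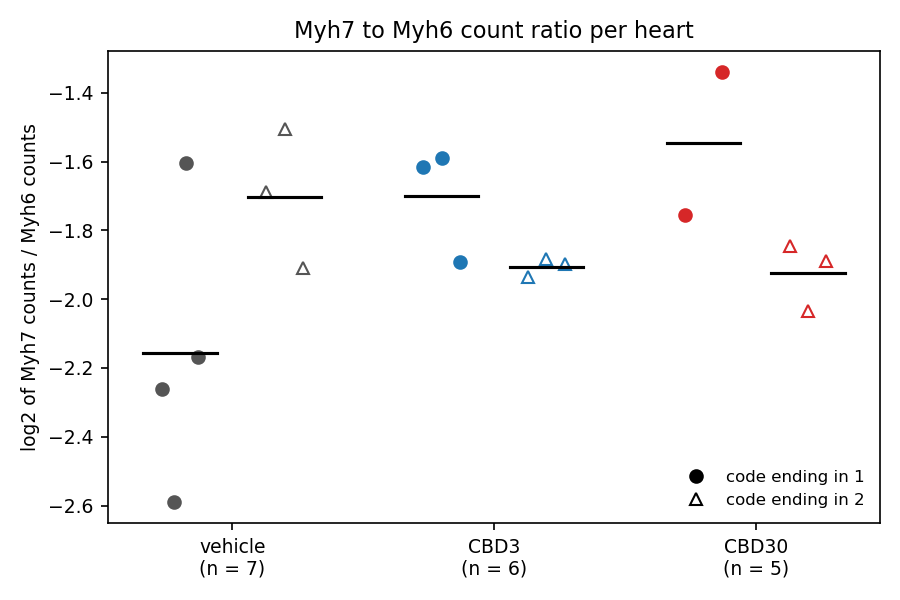
Log2 of the ratio of Myh7 to Myh6 counts in each heart, by group and by the last digit of the code (filled circles 1, open triangles 2), with black lines at the mean of each set. Vehicle hearts ending in 1 have the lowest mean (-2.16), below the CBD3 and CBD30 means of that digit, whereas vehicle hearts ending in 2 (-1.70) lie above them.

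The spread between hearts is given here by group, and whether it differed between groups was not tested. The SD of Myh6 log2 CPM was 0.33 in vehicle, 0.15 in CBD3 and 0.09 in CBD30 hearts, and that of Myh7 was 0.34, 0.11 and 0.33. The vehicle SD of Myh6 includes heart 2.2, which had the lowest Myh6 of all hearts. SDs by group were not computed for the other genes. Around the group means the SD was 0.23 for Myh6 and 0.28 for Myh7, against a median of 0.24 over the 13527 tested genes that averaged 1 CPM or more. By this measure neither myosin gene was unusually variable, with 44.5% and 62.2% of genes less variable than Myh6 and Myh7.

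Across the 18 hearts Myh6 and Myh7 log2 CPM were weakly related, with a Pearson r of 0.39 (permutation p = 0.106) and a Spearman rho of 0.37 (permutation p = 0.133). Without the 2 hearts farthest from the median of Myh6, r was 0.27. Without the 3 hearts farthest out on the first component, r was 0.74 (permutation p = 0.00145) and rho 0.80 (permutation p = 0.00081, n = 15). Those hearts hold extremes of the ratio of the 2 genes, and leaving out such hearts tends to raise r by itself. Within the digits r had opposite signs. In hearts ending in digit 2 the genes rose and fell together, with r = 0.88 (exact permutation p = 0.00244) and rho = 0.93 (exact permutation p = 0.00075, n = 9), and r was 0.97 without the 2 farthest. In hearts ending in digit 1 r was -0.62 (exact permutation p = 0.0738) and rho -0.55 (exact permutation p = 0.133, n = 9), and r was -0.40 without the 2 farthest. Without the 3 hearts farthest out on the first component, all of them from digit 1, it was -0.18 (exact permutation p = 0.750, n = 6). The difference between these values was not tested. All of these correlations were taken over the groups together. Over deviations from the group means, the 18 hearts gave r = 0.32 (permutation p = 0.203). Both genes share each library and its scaling factor.

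**Figure D4:**
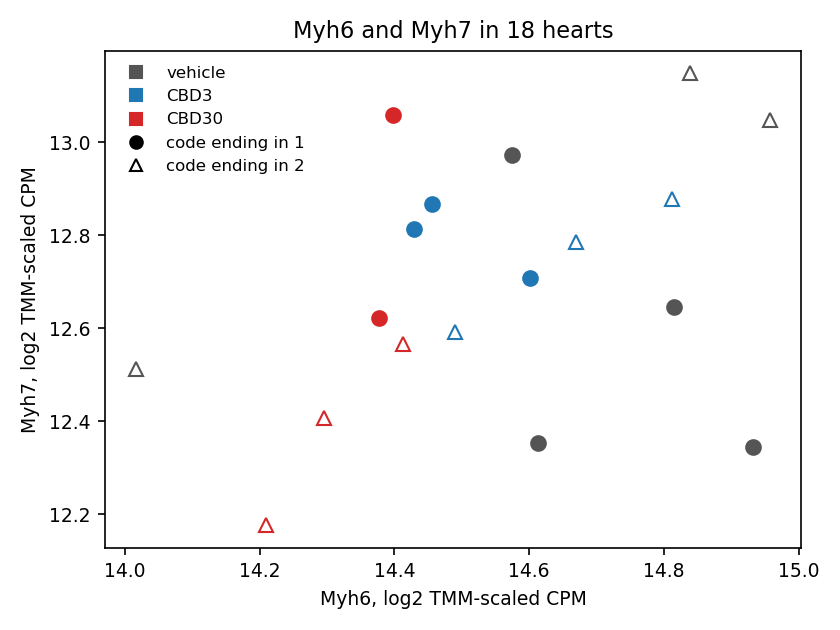
Myh7 against Myh6 in 18 hearts, both as log2 TMM-scaled CPM, coloured by group, with filled circles for codes ending in 1 and open triangles for codes ending in 2. The open triangles rise from lower left to upper right (r = 0.88), and the filled circles slope down (r = -0.62).

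Over all 18 hearts the isoform ratio was correlated with the first principal component. The log2 ratio and the score on the first principal component had a Pearson r of 0.93 and a Spearman rho of 0.87 over 18 hearts. For each the permutation p was 1e-05, the smallest that 100000 resamples can give, and 3e-05 adjusted over 3 library measures. Without the 2 hearts with scores farthest from the median r was 0.87, and without the 3 farthest out it was 0.80 (permutation p = 0.00037, n = 15), with the scores kept from the 18 hearts. Within hearts ending in digit 1 r was 0.98 (exact permutation p = 5.51e-06, n = 9) and 0.97 without those 3 (exact permutation p = 0.00278, n = 6). The relation was not detected in digit 2 (r = 0.52, exact permutation p = 0.148, n = 9). Both myosin genes are among the 17009 genes behind the component. The component is computed from these same hearts, and the share of genes that correlate with it as closely was not counted. The p-values therefore do not show that the relation is particular to the myosin ratio. The hearts at the ends of the component are the same that hold the lowest and the highest ratio, with vehicle hearts 2.1 and 1.1 at scores of -65.0 and -57.9 and CBD30 heart 2.1 at 65.5.

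The log2 ratio was also higher where the 10 most abundant genes, which include Myh6, took more of the library. Pearson r was 0.57 (permutation p = 0.0128, adjusted 0.0192) and Spearman rho 0.58 (permutation p = 0.0129, adjusted 0.0194), and r was 0.49 without the 2 hearts farthest from the median share. Without the 3 hearts farthest out on the first component r was 0.31 (permutation p = 0.259, n = 15). The relation was not detected without them, and the difference between the values of r was not tested. In digit 1 r was 0.91 (exact permutation p = 0.000664, n = 9) and 0.71 without those 3 (exact permutation p = 0.117, n = 6). It was not detected in digit 2 (r = 0.10, exact permutation p = 0.795, n = 9). With the library total r was 0.06 and rho 0.18 (permutation p = 0.829 and 0.475, adjusted the same). That r was 0.47 in digit 1 and -0.59 in digit 2 (exact permutation p = 0.199 and 0.0931, n = 9 each), and 0.04 without the 3 hearts (permutation p = 0.892, n = 15) and 0.28 in digit 1 without them (exact permutation p = 0.572, n = 6). The part of these library measures in the ratio was not tested.

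**Figure D5:**
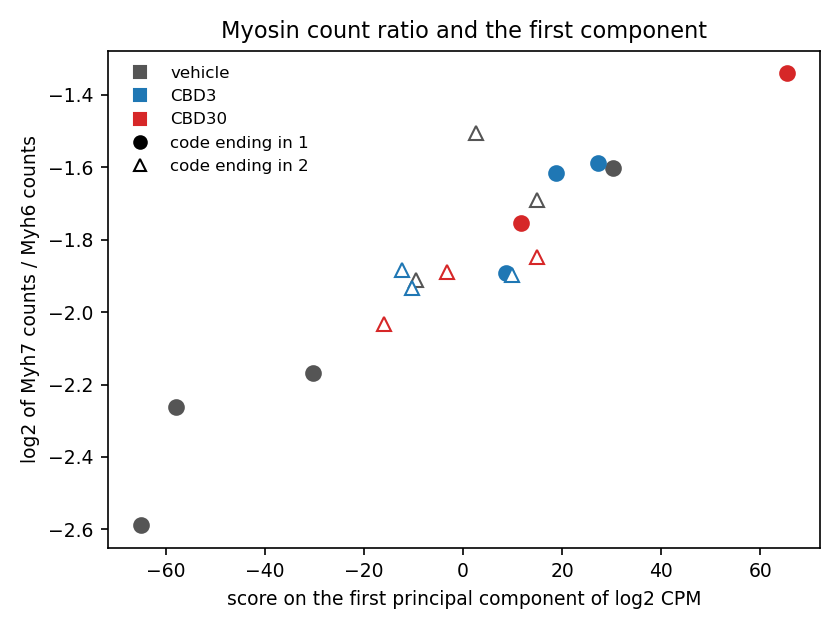
Log2 of the ratio of Myh7 to Myh6 counts against the score on the first principal component of log2 CPM, 1 point per heart, coloured by group, with filled circles for codes ending in 1 and open triangles for codes ending in 2. The points lie along a rising line (r = 0.93), from vehicle heart 2.1 at the lower left to CBD30 heart 2.1 at the upper right.

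The genes whose log2 CPM was most like that of each myosin gene are known here by ID only, and what they encode is not given. Among 13526 genes that averaged 1 CPM or more, ENSRNOG00000046424 followed Myh6 most closely (Pearson r = 0.93 over 18 hearts). It ranged from 175 CPM in vehicle heart 2.2 to 325 CPM in vehicle heart 3.2, the hearts that also held the lowest and the highest Myh6. ENSRNOG00000014128 followed Myh7 most closely (r = 0.93), from 79.9 CPM in vehicle heart 1.1 to 147 CPM in vehicle heart 1.2. Vehicle heart 1.2 also held the highest Myh7, but the lowest Myh7 was in CBD30 heart 3.2. Myh7 ranked 2368th in likeness to Myh6, and Myh6 ranked 3513th in likeness to Myh7. The log2 ratio was followed most closely by ENSRNOG00000063978 (r = 0.97), which ranged from 11.7 CPM in vehicle heart 2.1 to 29.4 CPM in CBD30 heart 2.1. The most opposed was ENSRNOG00000013920 (r = -0.90), with 40.2 CPM in vehicle heart 2.1 and 5.17 CPM in CBD30 heart 2.1. These are the extremes of many correlations between values from the same libraries, and they are given as a description.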

How the data were processed

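Raw counts by Ensembl ID, all whole numbers, were deposited by the authors in 1 table for 18 hearts. Per the submitters' processing notes, featureCounts and edgeR were used with the build mRatBN7.2. No source used here names the aligner or annotation release, or says how strand and multiply matching reads were handled. Per the labels' protocols, RNA had an integrity number of at least 7 and libraries came from a stranded messenger RNA kit. Groups came from the sample titles. Columns were matched to samples by code, and 4 vehicle columns, each named in the labels of 2 samples, were used without a replicate number.

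Genes were filtered with filterByExpr (minimum count 10, minimum total 15), which left 17009, Myh6 and Myh7 among them. All 18 hearts were fitted together in R 4.3.3 with edgeR 4.0.16 (TMM factors, quasi-likelihood F test), with Benjamini-Hochberg adjustment over all tested genes and a threshold of 0.05. Standard errors were derived from the F statistic. Log2 CPM used a prior count of 2. The ratio was tested by exact permutation of hearts, with intervals of the shifts that this test did not reject at the 95% level. Alternatives used limma 3.58.1 and DESeq2 1.42.0. On simulated counts for 17009 genes in the CBD30 and vehicle comparison, the test recovered 48% of genes changed 1.5-fold and 77% of those changed 2-fold. The simulated counts were drawn independently for each gene and heart, with no shared axis of variation and no litters. These shares need not hold for the real hearts, and smaller changes were not simulated. Libraries of a group always differed by more than sampling noise (chi-square of at least 36.1 per degree of freedom in 46 pairs). The members, gene lists and tests were chosen with earlier results of these data known. Lists of other myosin, regulator, foetal programme and cell type marker genes were set out by symbol and could not be applied, since 0 of 30560 IDs paired with a symbol. Genes of like pattern were named by a fixed rule, the ID with the highest correlation to each myosin gene and the highest and lowest to the ratio.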

Additional observations from a re-analysis of the deposited data

Results flagged for a closer look

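The difference in the log2 ratio of Myh7 to Myh6 between CBD3 and vehicle hearts was 0.66 larger in hearts with codes ending in digit 1 than in those ending in digit 2 (0.46 against -0.20; exact permutation within digits, unadjusted p = 0.0471, 0.0850 after adjustment over 3 comparisons). In digit 1, 3 of 4 vehicle hearts had the lowest ratios of the study. This was singled out because a dose difference that differs between sets of samples called for a second look, and it did not pass adjustment. Without the 3 hearts farthest out on the first component it was 0.39 (exact permutation p = 0.145). Those hearts include the lowest ratios of the vehicle group, so leaving them out lowers this value by itself. In 9 sets of 5 to 7 hearts (Myh6, Myh7 and the ratio in each group), 0 hearts stood apart from the rest of their set, where chance gives about 1 in 20.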

How the results depend on the processing

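The fits and correlations within 1 digit, those without the 3 hearts farthest out, the interactions and the unpaired fits of the paired hearts were chosen after seeing the data. Neither Myh6 nor Myh7 passed an adjusted p of 0.05 in any fit run. What made values move was not tested unless stated. Differences near 0 changed sign. For CBD3 against vehicle, hearts ending in digit 2 gave 0.0029 for Myh6, -0.17 for Myh7 and -0.20 for the log2 ratio, and leaving out the 3 hearts gave -0.11 for Myh7 and -0.027 for the ratio. For CBD30 against vehicle, the ratio was -0.22 in digit 2 and -0.11 without the 3 hearts, and Myh7 was 0.27 in digit 1. Between the doses, the ratio was -0.018 in digit 2 and -0.079 without the 3 hearts, and Myh7 was 0.075 in digit 1.

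Leaving out each heart in turn moved Myh7 from -0.032 to 0.105 for CBD3 against vehicle (negative without vehicle hearts 1.1, 2.1 or 2.2), the ratio between the doses from -0.079 to 0.095 (negative without CBD30 heart 2.1) and the ratio between digits from -0.091 to 0.065. The ratio ranged from 0.054 to 0.234 for CBD3 and from 0.080 to 0.264 for CBD30 against vehicle. Myh7 ranged from -0.30 to -0.066 for CBD30 against vehicle and from -0.325 to -0.093 between doses. The correlation of Myh6 with Myh7 ranged from 0.28 to 0.58 (permutation p = 0.0149 without vehicle heart 2.1), and was -0.62 in digit 1, 0.88 in digit 2 and 0.74 without the 3 hearts. The ratio correlated with the library total at 0.47 in digit 1 and -0.59 in digit 2, and with the first component at 0.52 in digit 2. With the share of the 10 most abundant genes it correlated at 0.096 in digit 2 and 0.31 without the 3 hearts.

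Genes called numbered 5, 133 and 1 with DESeq2 for CBD3, CBD30 and between doses, and 1 between doses with only those groups fitted. For CBD30, leaving out hearts gave 0 to 267 (267 without vehicle heart 3.1, 1 without CBD30 heart 1.1). Numbers at an unadjusted p under 0.05 ranged from 929 to 2823, 1606 to 3912 and 230 to 363 over the hearts left out. The fits of digit 2 gave 586 for CBD3 and 798 for CBD30, digit 1 gave 4265 for CBD30, and leaving out the 3 hearts gave 747 and 1133. Between doses, no filter on low counts gave 615, a stricter filter 177, the replicate block 770 and the same hearts unpaired 529. For CBD3 the block gave 735 and the same hearts unpaired 535, against 1518 in the fit of all hearts.

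Whether same-numbered hearts deviated together was not tested, and so few pairs do not settle it. Deviations of CBD30 and CBD3 hearts of the same number correlated at -0.077 to 0.31, with 2 of 5 pairs above 0.1, and 2 of 5 CBD30 hearts correlated best with their own number. A replicate block over the 2 numbers shared by CBD3 and vehicle columns gave 0.15 for Myh6, -0.14 for Myh7 and -0.29 for the ratio. The same 4 hearts unpaired gave 0.098 and -0.17 for the genes, so that sign comes with the choice of hearts. Between doses the block gave -0.25 for Myh6 and -0.24 for Myh7 (edgeR adjusted p = 0.998 for both), and 0 genes were called. CBD30 and vehicle columns share 1 number and could not be blocked.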
